A study of Mus musculus with 2 samples.

Results

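Translation initiation and elongation factors were compared between lungs homozygous for the hypomorphic Nmyc9a allele and wildtype lungs of mice. Members were the probe sets to which the platform's annotation gives a single symbol that starts with Eif1 to Eif6, or with Eef1 or Eef2. The genes for the third eIF2 subunit, Eif2s3x on the X and Eif2s3y on the Y chromosome, were left out. The rule took in 150 probe sets of 56 genes, out of 18193 genes with such a probe set. Of the 56 genes, 44 were grouped by name with the factors themselves. That group takes in relatives such as Eef1e1, Eif4a3, Eif4e2 and Eif1ad. The remaining 12 are kinases, inhibitors and methyltransferases named after the factor they act on, so the set is wider than the factors alone.

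Both groups were whole lungs at embryonic day 18, shortly before birth, and total RNA of pooled lungs was put on 1 Affymetrix array per group. The Nmyc9a lungs carried that allele on both copies of Mycn, the gene of the transcription factor N-Myc. The comparison lungs are labelled wildtype. No source used here gives the number of animals in a pool, or their sex and strain.

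Translation starts when eIF2 brings the initiator tRNA to the small ribosomal subunit, where eIF1, eIF1A, eIF3 and eIF5 assemble around it. The cap-binding complex eIF4F, made of eIF4E, an eIF4G scaffold and the helicase eIF4A, recruits the mRNA, and the loaded subunit scans to the start codon. After eIF5B joins the large subunit, eEF1A delivers each aminoacyl-tRNA and eEF2 moves the ribosome along. Myc proteins are known activators of many genes of ribosome production and translation, and Eif4e is among the long known targets of c-Myc.

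With 1 array per group there is no replicate, no test was possible and no p-value is given. The number of arrays limits the precision. Values are the authors' linear signal intensities, and those of the array labelled Nmyc9a were scaled by 0.977 to bring the median log2 ratio to 0. A floor was set at 49.3, the 40th percentile of all signals, and signals below it were raised to it for ratios. A gene took its probe set with the highest mean signal and counted as measured if that mean reached the floor. Ratios are log2 of the array labelled Nmyc9a over the wildtype array. The only internal error in the data is the spread between measured probe sets of the same gene, a log2 SD of 0.40 pooled over 5671 genes. Among the members alone that SD was 0.45. It covers probe sets on the same arrays and not the variation between pools of lungs or between arrays. A size of 1.5-fold (0.58 on the log2 scale) is used below for counts.

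The targeted gene does not check the labels. Mycn read 84.8 on the array labelled Nmyc9a and 66.3 on the wildtype array by its brightest probe set, a log2 ratio of 0.36, and 85.4 and 51.1 by the other measured one. The third lay below the floor on both arrays. The position of these probes in the modified gene was not analysed here, so every direction below rests on the label. The lung markers were present on both arrays, with all 10 epithelial and all 7 mesenchymal markers measured and median log2 ratios of 0.01 and -0.05. All 6 proliferation markers were at least 1.5-fold lower (summed signal 1703 on the array labelled Nmyc9a and 3595 on the wildtype array), beside 9.7% of all measured genes. Of 5 measured liver markers 4 were at least 1.5-fold higher (summed signal 1108 and 317), as were 3 of 6 measured skeletal muscle markers (1022 and 543). Of all measured genes, 6.33% were higher by that size. These sums cover all list genes on the array, and no marker was at 0. In whole-lung RNA, fewer cells of a type and less RNA per cell cannot be told apart.

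Translation factors were more often lower than higher on the array labelled Nmyc9a, by modest amounts. Among the 54 measured members, 9 (16.7%) were lower by 1.5-fold or more, beside 9.7% of all 12600 measured genes. Only Eif2d and Eif2ak4 (3.7% of members) were at least 1.5-fold higher, beside 6.33% of all genes. The lower ones were Eif1ax, Eif1a, Eif3i, Eif3l, Eif4a1, Eif4e, Eef1d, Eef1e1 and Eef1akmt1. Ratios below 0 were found for 40 of 54 members (74.1%), beside 58.7% of all genes, and the members' median was -0.23, beside -0.09 for all measured genes. Translation factors are mostly bright, and bright genes of any kind were more often below 0: 69.7% of genes with a mean signal from 300 to 1000 and 77.4% above 1000. In those ranges 12 of 16 and 15 of 18 members lay below 0. At 2-fold, 1 member, Eef1akmt1, was lower (1.38% of all genes were) and 1, Eif2ak4, was higher (1.29% of all genes). The members not measured were Eif4a3 (signals of 4.98 and 15.2) and Eef2kmt (20.7 and 15.2), both below the floor on both arrays.

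**Figure D1:**
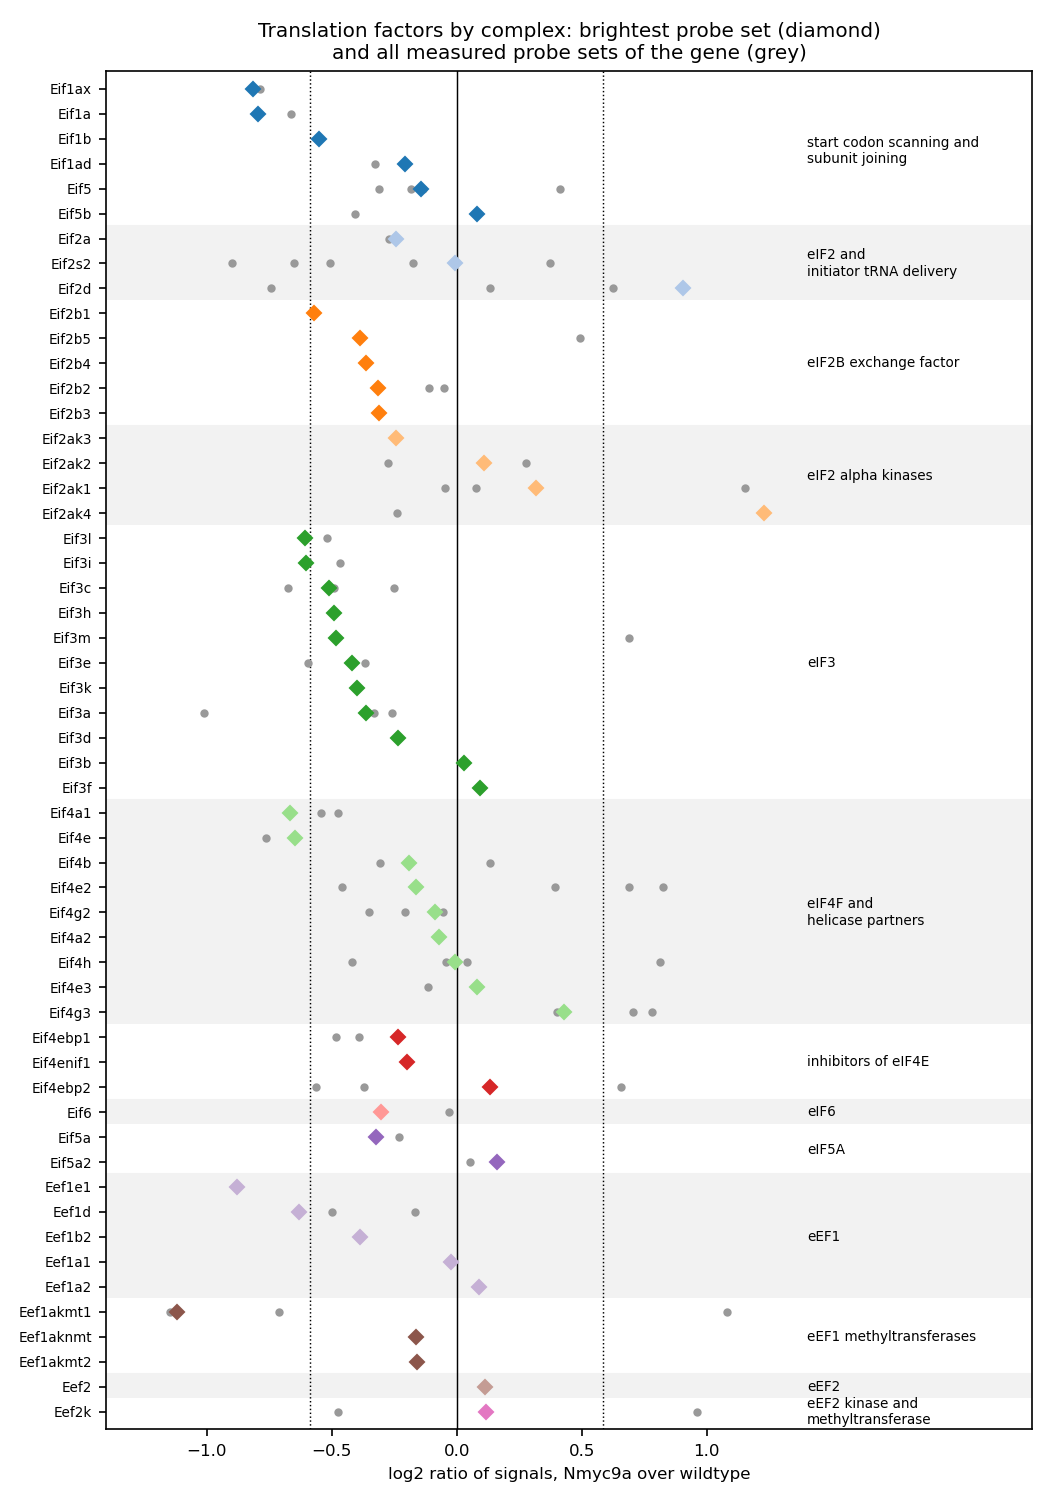
Log2 ratio of signal, array labelled Nmyc9a over wildtype array, for the 54 measured genes grouped by class (rows). Diamonds are the brightest probe set of each gene, grey points its other measured probe sets, and dotted lines mark 1.5-fold. Of eIF3, 9 of 11 diamonds lie left of 0, as do all 5 of eIF2B, and Eif2ak4 and Eif2d lie right of the upper line.

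These counts moved with the scaling. Quantile normalization gave 5 members lower and 3 higher, and loess on mean signal gave the same numbers. The 3 higher members were 5.56% of members, beside 5.1% of all genes after quantile normalization and 5.57% after loess. Under both, Eif1a, Eif1ax, Eef1e1 and Eef1akmt1 were again lower and Eif2b1 joined them, while Eif4g3 joined the higher members. Under quantile normalization or loess, 9.26% of members were lower, beside 10.9% and 9.39% of all genes, so the excess of lower members seen above was not present. The proliferation markers moved in the same direction as the lower members, and their part in the result was not tested.

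**Figure D2:**
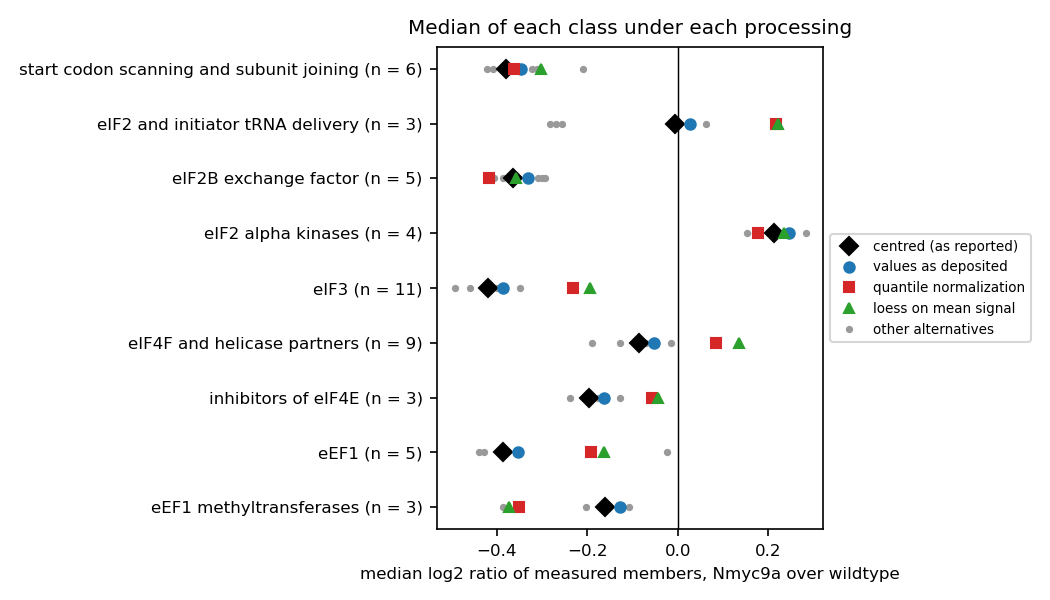
Median log2 ratio, array labelled Nmyc9a over wildtype array, of each class with at least 3 measured members, as reported (black diamond) and under the alternatives that keep 1 value per gene. The eIF2 alpha kinases lie right of 0 under each of these, eIF4F and eIF2 cross 0, and the other classes lie left of it.

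The factors that govern start codon scanning held 2 of the lower members (33.3% of the 6 measured, beside 9.7% of all genes). Eif1ax, which encodes eIF1A on the X chromosome, read 580.2 on the array labelled Nmyc9a and 1019.5 on the wildtype array, 1.76-fold lower. Eif1a, its autosomal paralog, read 261 and 452, 1.74-fold lower. Both measured probe sets of each gene were lower (-0.79 and -0.81 for Eif1ax, -0.66 and -0.80 for Eif1a). Whether probes of one paralog also bind the other's RNA was not tested. Eif1b, a paralog of the scanning factor gene Eif1, which was not analysed here, read 241 and 353, a log2 ratio of -0.55. Eif1ad, an eIF1A domain protein, stood at -0.21 and Eif5, whose product triggers GTP hydrolysis by eIF2, at -0.14. Eif5b had the highest ratio of the class, 0.08 (236 and 223), but its second measured probe set stood at -0.41. Of 6 measured members, 5 were below 0 (83.3%, beside 58.7% of all genes). The class median of -0.38 ranged from -0.42 to -0.21 over the alternatives that keep 1 value per gene.

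The beta subunit of eIF2 depended on the probe set. Eif2s2 read 1213 and 1219 by its brightest probe set, a log2 ratio of -0.01. A second probe set, nearly as bright by its mean, gave -0.65, with 945 on the array labelled Nmyc9a and 1484 on the wildtype array. The other bright ones gave -0.51 and -0.90, and the remaining pair gave -0.18 and 0.37. Without x, s and a probe sets (an Affymetrix suffix for probes that may bind several transcripts), or with the floor at the 20th percentile, Eif2s2 counted among the lower members (-0.65 and -0.69). Eif2a, an alternative carrier of initiator tRNA, stood at -0.24 with its other measured probe set at -0.27.

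Eif2d, a factor of non-canonical initiation and ribosome recycling, was higher by its brightest probe set, which read 435 and 232 (1.87-fold). Its 4 measured probe sets ran from -0.74 to 0.91, and their median was 0.38. The class of eIF2 and initiator tRNA delivery had no common direction, with a median of -0.01 that ran from -0.28 with the floor at the 20th percentile to 0.22 after loess. Eif2s2 was the only subunit of eIF2 itself in it, since Eif2s1, the alpha subunit, was not analysed here.

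All 5 subunits of eIF2B, the exchange factor that recharges eIF2 with GTP, had ratios below 0, beside 58.7% of all genes. None reached 1.5-fold. Eif2b1, the alpha subunit, was lowest with 105 on the array labelled Nmyc9a and 156 on the wildtype array (-0.57). Eif2b3, the gamma subunit, was the least low with 121 and 149.5 (-0.31). Eif2b4 stood at -0.36, Eif2b2 at -0.31 and Eif2b5, the catalytic subunit, at -0.39, though a dimmer Eif2b5 probe set stood at 0.49. The median of -0.36 lay between -0.42 and -0.29 over the same alternatives. These ratios stayed under the probe set SD of 0.40 except that of Eif2b1, which has 1 probe set. That SD does not cover variation between pools or arrays.

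The kinases that phosphorylate eIF2 alpha, and so restrain initiation under stress, lay above 0 in 3 of 4 cases. Of all measured genes, 58.7% lay below 0. Eif2ak4, the GCN2 kinase that senses uncharged tRNA, read 179 on the array labelled Nmyc9a and 76.4 on the wildtype array, 2.35-fold higher. Its other probe set stood at -0.24 (88.2 and 104.2), so the gene's probe sets disagreed in sign. That other probe set was the brighter one on the wildtype array. The choice by mean signal thus rested on the high value on the array labelled Nmyc9a itself. Eif2ak1, the haem-regulated kinase of red cell precursors, read 263 and 212 (0.32), with its other measured probe sets at -0.05, 0.08 and 1.15 or higher. Eif2ak2, the kinase PKR that responds to double-stranded RNA, stood at 0.11. Eif2ak3, the endoplasmic reticulum kinase PERK, was lowest of the class at -0.24 (205 and 242.5).

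The subunits of eIF3, the largest initiation factor and the platform on which the small subunit complex assembles, had ratios mostly below 0 and mostly under 1.5-fold in size. Of 11 measured subunit genes, 9 (81.8%) were below 0, where bright genes in general stood at the 69.7% and 77.4% given above. Of the 11, 2 (18.2%) were at least 1.5-fold lower, beside 9.7% of all genes, and the median was -0.42. Eif3l read 756 on the array labelled Nmyc9a and 1150 on the wildtype array, 1.52-fold lower. Eif3i read 1476 and 2241, also 1.52-fold lower. Both lay just past the size rule, and neither passed it with the values as deposited, after quantile normalization or after loess.

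Eif3a, the largest subunit and a scaffold of the complex, read 1781 and 2288 (-0.36). All 4 of its probe sets were lower, from -1.01 to -0.26. All 4 probe sets of Eif3c were lower as well, from -0.67 to -0.25, and all 3 measured ones of Eif3e, from -0.60 to -0.37. Eif3h stood at -0.49, Eif3m at -0.48, Eif3k at -0.40 and Eif3d, which can itself bind the cap of some mRNAs, at -0.23. A dim second probe set of Eif3m stood at 0.69.

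The exceptions were Eif3f, which read 2655 on the array labelled Nmyc9a and 2492 on the wildtype array (0.09), and Eif3b, which read 579 and 567 (0.03). The same 9 subunits lay below 0 under all 4 scalings, and the class median was -0.23 after quantile normalization and -0.19 after loess. Neither Eif3f nor Eif3b has a second measured probe set.

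**Figure D3:**
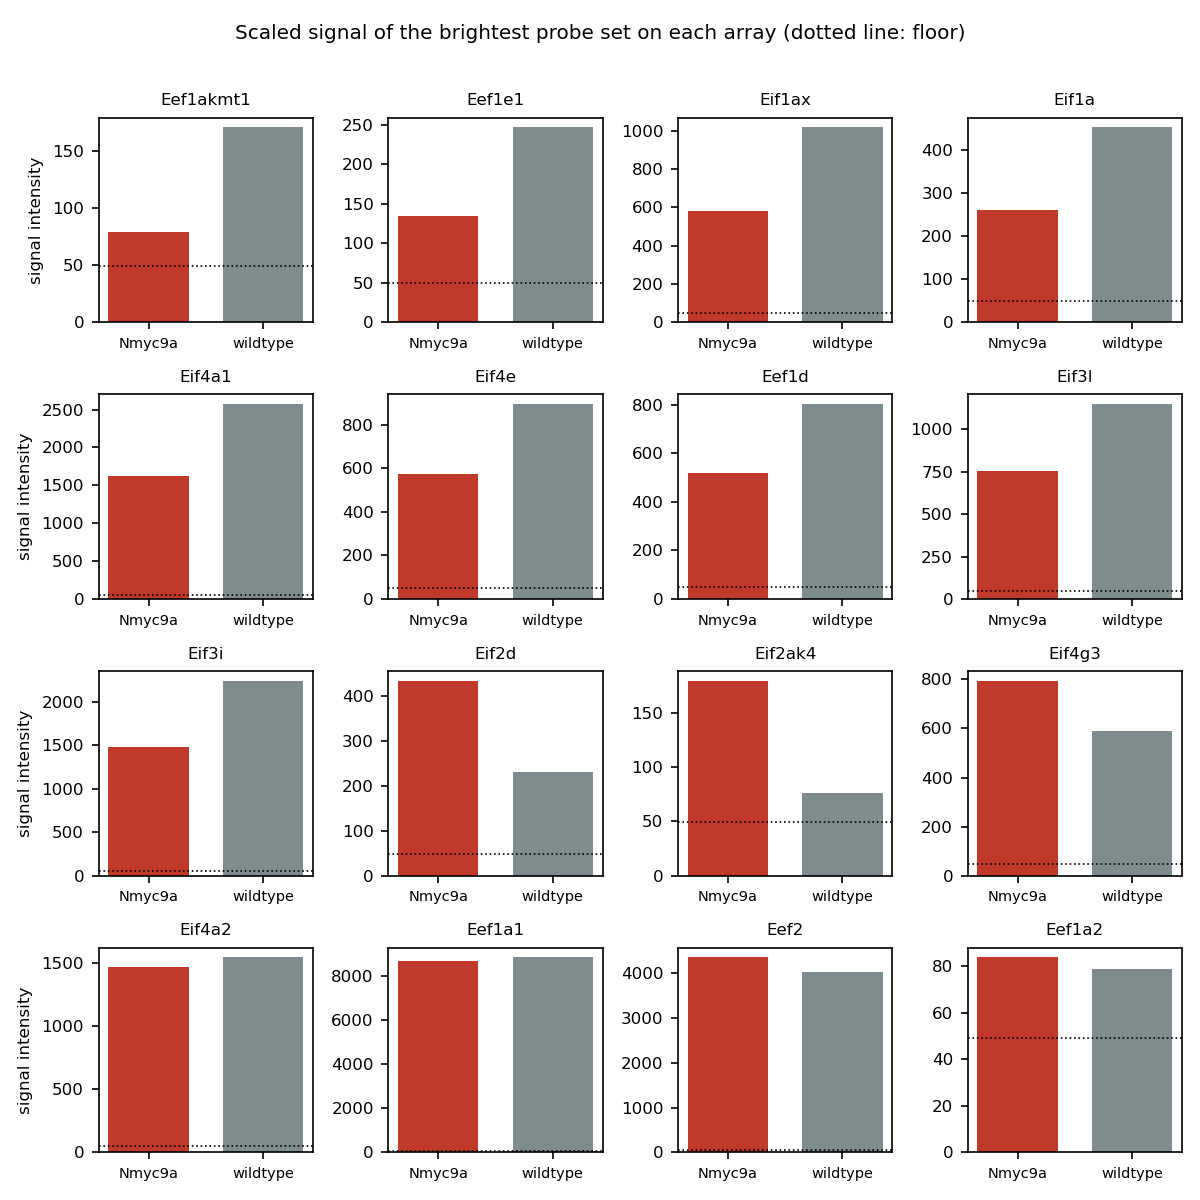
Scaled signal intensity of the brightest probe set on the array labelled Nmyc9a (red, left) and the wildtype array (grey, right) for 16 genes, each on its own axis from 0. The dotted line is the floor of 49.3. The bars are single arrays, so they carry no error. The first 9 genes are lower on the array labelled Nmyc9a, the next 3 are higher, and the last 4 are nearly level.

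In eIF4F, paralogs differed from each other. Eif4a1, the main helicase gene of growing cells, read 1623 on the array labelled Nmyc9a and 2574 on the wildtype array, 1.59-fold lower, and its other probe sets gave -0.54 and -0.47. Eif4a2, the closely related second helicase gene, read 1471 and 1545 (-0.07), measured by 1 probe set. The cap-binding protein gene Eif4e read 572 and 895, 1.56-fold lower. Its second measured probe set read 175 and 297 (-0.76), and both others lay below the floor by their mean. After quantile normalization and loess, Eif4a1 stood at -0.44 under both and Eif4e at -0.47 and -0.45, short of 1.5-fold. Eif4a2 stood at 0.16 under both.

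Eif4e2, whose product 4EHP binds caps without recruiting the ribosome, stood at -0.16 by its brightest probe set. Its other 4 probe sets ran from -0.46 to 0.83. Eif4e3 stood at 0.08. Of the eIF4G family only Eif4g2 and Eif4g3 were measured, and Eif4g1, the main scaffold, was not analysed here. Eif4g3 had the highest ratio of the class, with 794 and 589 (0.43, 1.35-fold), and all 4 of its probe sets were above 0, from 0.40 to 0.78. Eif4g2, a scaffold relative that lacks the cap-binding partner's site, stood at -0.09. The helicase cofactors Eif4b and Eif4h stood at -0.19 and -0.005 (3088 and 3099 for Eif4h). The class median was -0.09, but 0.09 after quantile normalization and 0.14 after loess, so the class as a whole had no settled direction.

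The promoters of Eif4e, Eif4a1 and Eif4a2 are shown for their place in the counts reported here. Eif4e and Eif4a1 were the lower members of eIF4F there, and Eif4a2 was the level paralog of Eif4a1. They come from RefSeq (GRCm38.p6) and run from 250 bases before the annotated start to 50 after it. Capitals mark CACGTG, the palindromic E-box that Myc and Max dimers can bind. The Eif4e window is chr3:138527018-138527317 on the plus strand, the second of its annotated starts. The window of its first start, chr3:138525941-138526240, holds no CACGTG and is not shown. That of Eif4a1 is chr11:69672374-69672673 on the minus strand, and that of Eif4a2 is chr16:23107218-23107517 on the plus strand.
Eif4e: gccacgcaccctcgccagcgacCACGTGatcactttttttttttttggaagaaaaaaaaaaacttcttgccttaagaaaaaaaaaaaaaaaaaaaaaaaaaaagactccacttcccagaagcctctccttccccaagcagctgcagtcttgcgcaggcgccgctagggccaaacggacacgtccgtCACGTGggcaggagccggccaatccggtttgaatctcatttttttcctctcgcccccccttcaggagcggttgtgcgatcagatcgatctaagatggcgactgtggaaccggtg
Eif4a1: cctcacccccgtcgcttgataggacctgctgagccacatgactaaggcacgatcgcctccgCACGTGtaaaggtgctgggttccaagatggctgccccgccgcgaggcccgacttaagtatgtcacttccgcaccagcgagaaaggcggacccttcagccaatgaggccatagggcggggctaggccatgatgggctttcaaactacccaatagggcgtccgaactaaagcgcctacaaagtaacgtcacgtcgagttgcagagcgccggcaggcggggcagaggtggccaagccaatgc
Eif4a2: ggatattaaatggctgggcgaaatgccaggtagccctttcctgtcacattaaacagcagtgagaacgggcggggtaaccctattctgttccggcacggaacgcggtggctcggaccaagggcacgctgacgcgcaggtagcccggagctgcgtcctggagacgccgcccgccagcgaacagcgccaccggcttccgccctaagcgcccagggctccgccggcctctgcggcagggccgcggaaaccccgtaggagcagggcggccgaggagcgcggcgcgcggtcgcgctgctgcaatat

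The E-box letters begin 228 and 64 bases before the start in the Eif4e window and 189 bases before it in that of Eif4a1, and are not in the window of Eif4a2. Of the 45 members with a promoter entry, 12 (26.7%) held CACGTG at any annotated start, beside 11.2% of 10135 measured genes and 7.15% of all 32851 windows. The other members with it were Eif1b, Eif3a, Eif3f, Eif3k, Eif4h, Eif5a, Eif5a2, Eef1aknmt, Eef2 and Eef2k. Of the 12 with the motif, 2 were at least 1.5-fold lower, and of the 31 measured ones without it, 3 were. Their median log2 ratios were -0.24 and -0.19, so members with and without the letters had about the same ratio. CCGGAAG, a core of Ets family sites searched on both strands, was in the windows of 16 of 45 members (35.6%), beside 18.4% of measured genes and 8.86% of all windows. Members with it had a median of -0.32 and those without it one of -0.07. The same medians over all measured genes were -0.17 and -0.07. A match of letters is a description of these windows and not a bound site, and the CCGGAAG search was chosen after the windows had been read.

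No inhibitor of eIF4E reached 1.5-fold. Eif4ebp1, which sequesters eIF4E until mTOR phosphorylates it, read 620 on the array labelled Nmyc9a and 729 on the wildtype array (-0.23), and all 3 of its probe sets were lower, down to -0.48. Eif4ebp2 read 1113 and 1016 (0.13), with its other measured probe sets between -0.56 and 0.66. Eif4enif1, a transporter of eIF4E into the nucleus, stood at -0.20. Eif6, which keeps the large subunit from joining too early, read 410 and 505 (-0.30).

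Of 5 measured genes grouped by name with eEF1, 2 (Eef1d and Eef1e1, 40%) were at least 1.5-fold lower, beside 9.7% of all genes. No gene of this class was higher by that size, beside 6.33% of all genes. The class median of -0.39 ran from -0.44 to -0.02 over the alternatives. Eef1a1, the main carrier of aminoacyl-tRNA, read 8699 on the array labelled Nmyc9a and 8845 on the wildtype array (-0.02). Eef2, the translocase, read 4344 and 4020 (0.11). Both were nearly level, and possible saturation at signals as bright as that of Eef1a1 was not tested. Of the exchange factor subunits, Eef1d read 518 and 803, 1.55-fold lower, and all 3 of its measured probe sets were below 0. It stood at -0.47 after quantile normalization and -0.45 after loess, short of 1.5-fold. Eef1b2 read 2446 and 3197 (-0.39), and stood at -0.19 and -0.16 under those scalings. Eef1e1, a small protein of the multi-tRNA synthetase complex that carries the factor's name, read 134 and 247, 1.84-fold lower.

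Eef1a2, the carrier used by muscle and neurons, read 83.7 and 78.7 (0.09), close to the floor. The skeletal muscle markers beside it had a median log2 ratio of 0.74 and the 3 measured nerve markers one of -0.35. Eif5a, which helps the ribosome through difficult peptide bonds, read 2802 and 3506 (-0.32), and both its probe sets were lower. Its paralog Eif5a2 read 80.6 and 72.2 (0.16).

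Of the enzymes that modify elongation factors, the lysine methyltransferase gene Eef1akmt1 was lower, with 78.8 on the array labelled Nmyc9a and 171 on the wildtype array (2.17-fold). Of its 4 probe sets 3 were lower, from -1.15 to -0.71. The fourth read 104 and 48.3, at least 2.12-fold higher, so the gene's probe sets contradicted each other. It was the brightest of the 4 on the array labelled Nmyc9a, so the choice by mean signal rested on the high wildtype value. Eef1akmt2 and Eef1aknmt both stood at -0.16. Eef2k, the kinase that halts eEF2, read 269 and 248 (0.12), with its other probe sets at -0.48 and 0.96.

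Counted one by one, 126 of the 150 probe sets were measured. Of these, 20 (15.9%) were at least 1.5-fold lower, beside 9.24% of all 22457 measured probe sets with a single gene. A further 13 (10.3%) were at least 1.5-fold higher, beside 9.32% of all. On this count the lower side exceeded the background and the higher side was near it. It was made under the main scaling only, and not after quantile normalization or loess. Several of the lower probe sets belong to the same genes, such as Eef1akmt1, Eif1a, Eif1ax and Eif4e. Of the 35 members that 2 or more probe sets measured, 17 (48.6%) lay below 0 by each one, beside 30.1% of such genes on the array. Only Eif4g3 and Eif5a2 lay above 0 by each one, beside 20.1% of such genes, and 16 had both signs. Probe sets of a gene share the same RNA and array, so their agreement does not stand for replicates.

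The ratio also moved with brightness, over all genes as over the members. Genes with a mean signal between the floor and 100 had a median log2 ratio of 0.07, those from 100 to 300 one of -0.08, those from 300 to 1000 one of -0.18 and those above 1000 one of -0.21. The members of the same bins had medians of 0.09 (3 genes), -0.24 (17 genes), -0.31 (16 genes) and -0.17 (18 genes). The members' median was thus below that of genes of like signal in both middle bins and slightly above it in the others. At least 1.5-fold lower were none of 3 members in the dimmest bin (8.14% of genes), 11.8% of members from 100 to 300 (9.4% of genes), 31.2% from 300 to 1000 (11.5% of genes) and 11.1% above 1000 (10.4% of genes). The bin from 300 to 1000 held 5 of the 9 lower members. The bins were chosen after the data were seen.

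**Figure D4:**
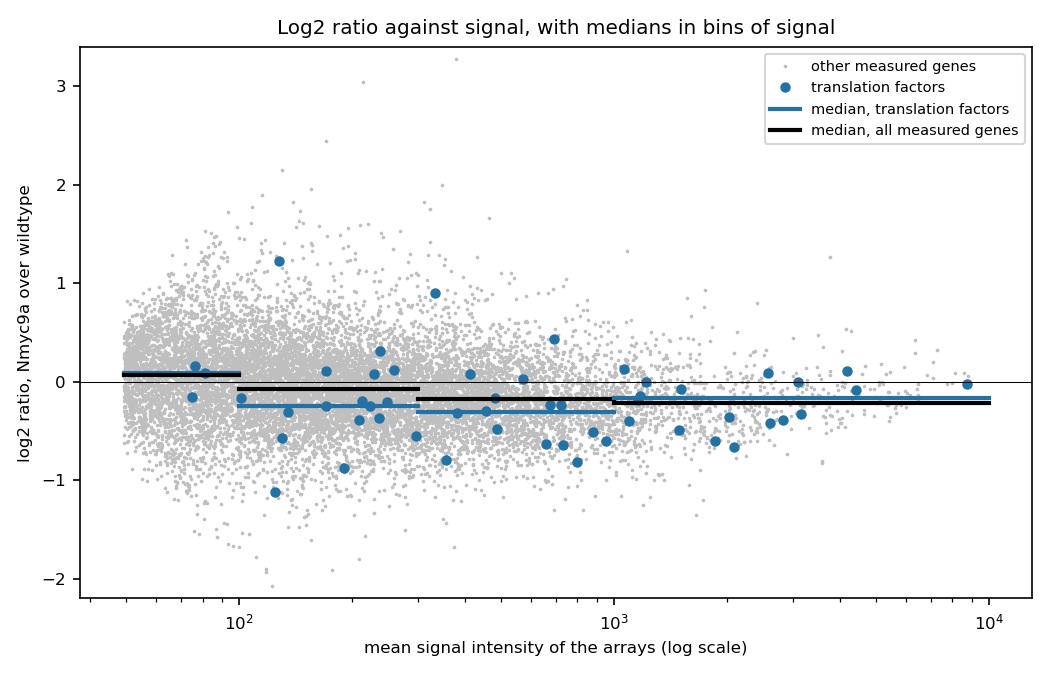
Log2 ratio of the array labelled Nmyc9a over the wildtype array (vertical) against mean signal intensity (horizontal, log scale) for each measured gene, with translation factors in blue and other genes in grey. Horizontal bars are medians in 4 bins of signal. The black bars step down from 0.07 to -0.21 as signal rises, and the blue bars lie below them in the middle bins.

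Other genes of the pathway were counted in 5 lists. Their values are those of the brightest probe set under the main scaling. Their other probe sets and the other scalings were not compared, so calls just past 1.5-fold carry the limits seen for the members. Of 9 measured genes of reinitiation, recycling and termination, 4 were at least 1.5-fold lower (9.7% of all genes were) and none was higher (6.33% of all genes). Of the 9, 8 lay below 0 (58.7% of all genes did), and the median of the 9 was -0.40. Abce1, which splits ribosomes after termination, read 265 on the array labelled Nmyc9a and 449 on the wildtype array (1.69-fold lower). The release factor genes Gspt1 and Etf1 were 1.70-fold and 1.51-fold lower, and Mcts1, a partner of Denr in reinitiation, 1.59-fold lower. Pelo, a rescue factor for stalled ribosomes, was highest at 0.01.

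All 7 measured mitochondrial factors lay below 0, beside 58.7% of all genes, with a median of -0.46, and none reached 1.5-fold. Gfm1, a mitochondrial elongation factor, was lowest with 185 and 258 (-0.47), and Gfm2 was highest at -0.07. Of 9 measured genes that modify eIF5A, eEF1 and eEF2, 1 (11.1%) was at least 1.5-fold lower, beside 9.7% of all genes. It was the diphthamide synthesis gene Dph3, with 98.7 and 160.1 (1.62-fold), and the hydroxylase gene Dohh was highest at 0.12.

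Regulators past 1.5-fold were single genes, at shares near or below those of all genes. Of 20 measured partners and regulators of eIF4F, 1 was higher (5%, beside 6.33% of all genes) and 1 lower (5%, beside 9.7%). Their median was -0.05. Deptor, an inhibitor of mTOR, read 506 on the array labelled Nmyc9a and 231.5 on the wildtype array (2.18-fold higher), and Rheb, the GTPase that activates mTOR, read 917 and 1418 (1.55-fold lower). Of 12 measured genes of the eIF2 phosphatase and stress response list, Ppp1r15a, the stress-induced subunit that directs phosphatase to eIF2, was 1.88-fold higher (194.5 and 103.5). Ddit3, a transcription factor downstream of eIF2 phosphorylation, read 30.8 and 82.1, at least 1.67-fold lower. Each of these calls was 8.33% of its list, beside 6.33% of all genes higher and 9.7% lower. Atf4, the main transcription factor of that response, stood at -0.10. Over the 5 lists together, 7 of 57 measured genes (12.3%) were at least 1.5-fold lower and 2 (3.51%) higher, against the same backgrounds of 9.7% and 6.33%.

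**Figure D5:**
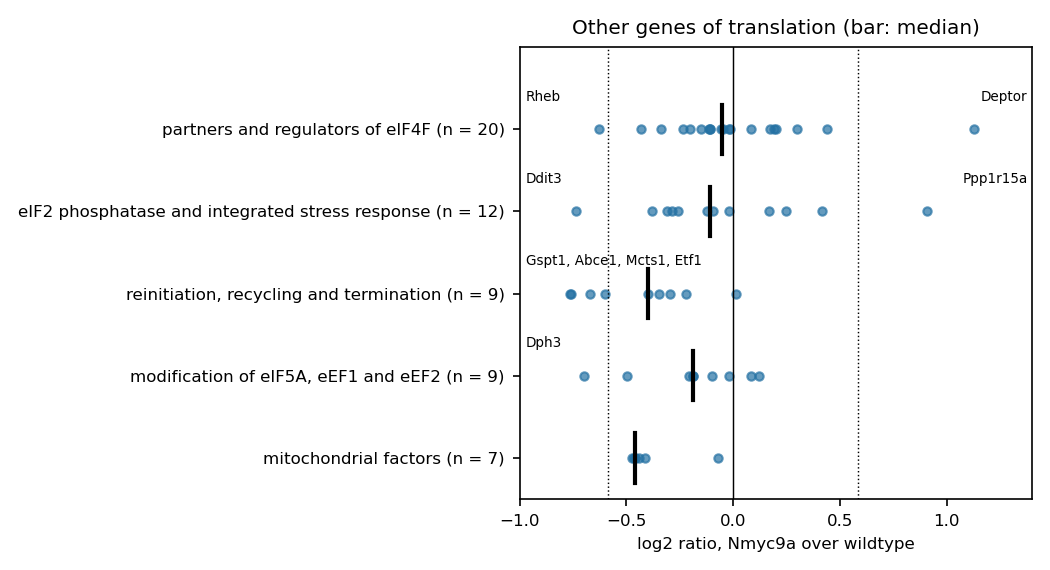
Log2 ratio, array labelled Nmyc9a over wildtype array, of each measured gene in 5 lists of other translation genes (points), with the list median as a black bar and dotted lines at 1.5-fold. Genes past 1.5-fold are named at the side they lie on. The medians of recycling and termination genes (-0.40) and of mitochondrial factors (-0.46) lie furthest to the left.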

How the data were processed

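RNA of 2 samples was measured, 1 array per group. The deposited intensity values are the authors' linear signals per Affymetrix probe set; no source used here gives the software, scaling or background steps. RNA was extracted with Trizol and an RNeasy kit and labelled with biotin, per the labels. From 45101 probe sets, 64 controls were set aside. Symbols came from the platform annotation and were updated to RefSeq (GRCm38.p6) through Entrez identifiers for 34741 of 34945 probe sets with 1 symbol, which changed no member. Centring, the floor, the brightest probe set and 1.5-fold counts were applied as the report states (Python 3.11.15, numpy 2.4.6, pandas 2.3.3), after a check on simulated data. No list or fold was tested. Named were members past 1.5-fold, the extremes of each class and 15 factors fixed by name, of which Eif1, Eif2s1 and Eif4g1, like the eIF3 subunit gene Eif3g, were not analysed here; further members are given to complete their class. Members, lists and classes were chosen with earlier results of these data known.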

Additional observations from a re-analysis of the deposited data

How the results depend on the processing

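The count of 9 lower members (16.7%, beside 9.7% of all genes) was 5 (9.26%) after quantile normalization, beside 10.9% of all genes, and 5 after loess (span 0.3, statsmodels 0.14.6), beside 9.39%. It was 5 (9.8%, beside 6.87%) with a floor at the 60th percentile and 5 (9.26%, beside 7.83%) when each gene took its median probe set ratio. It was 12 (21.8%, beside 13.5%) with a floor at the 20th percentile, 20 with every probe set on its own (15.9%, beside 9.24% of probe sets), 1 at 2-fold (1.85%, beside 1.38%) and 21 at the smallest size rule tried (38.9%, beside 27.2%). The count of 2 higher members (3.7%, beside 6.33% of all genes) was 0 with the median of probe sets, beside 5.84%. It was 13 with every probe set on its own (10.3%, beside 9.32% of probe sets) and 1 at 2-fold (1.85%, beside 1.29%). The members' median of -0.23 ranged from -0.28 with the floor at the 20th percentile to -0.15 after loess. Of 602 values for single genes and classes under the alternatives, 12 moved by more than the probe set SD of 0.40. None of the 11 called members changed sign where each gene keeps 1 value. By single measured probe sets, the called members Eif2d, Eif2ak4 and Eef1akmt1 also had a value of the opposite sign (-0.74, -0.24 and 1.08). Of the 54 measured members, 30 lay below 0 and 8 above 0 in every setting that measured them, and 16 changed sign in at least one. Why the counts differ between settings was not tested. No paired analysis was possible because each group has 1 array. Signals near the floor limit Eef1a2, Eif5a2 and Eef1akmt2. They also limit the members past 2-fold, Eef1akmt1 (78.8 on the array labelled Nmyc9a) and Eif2ak4 (76.4 on the wildtype array). With the floor at the 60th percentile, Eef1akmt1 went from -1.12 to -0.72 and Eif2ak4 from 1.23 to 0.86.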

Other observations

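Probe sets that the annotation gives to several genes were outside the rule, and the 6 measured ones all had ratios below 0. The brightest probe set of Eif3j1 and Eif3j2 together read 383 on the array labelled Nmyc9a and 418 on the wildtype array (-0.13), and another of the pair read 280.0 and 390.0 (-0.48). A probe set of Eef1g, the gamma subunit of the eEF1 exchange factor, and a predicted gene read 1115 and 1669 (-0.58), near the ratio of -0.63 of Eef1d. A probe set of Eif4a3, the helicase of the exon junction complex, and a predicted gene read 376 and 520 (-0.47), while the single-gene probe set of Eif4a3 lay below the floor. One of Eif4ebp3 and Ankhd1 read 213 and 246 (-0.21). Which of the named genes gave each of these signals was not tested.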
